A study of Mus musculus and Homo sapiens with 17 samples.

Results

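The genes for the proteins of the cytosolic ribosome were followed across skin tumours of mice and across a human tumour line. A mouse gene belonged to the family when its symbol was Rpl or Rps with digits and at most an a, l, x or y, or was Rpsa, Rplp0, Rplp1 or Rplp2, and when its counts summed to at least 100 over the 11 mouse libraries. This took 82 of the 55988 rows of the mouse table. The same symbols in upper case took 80 of the 58958 rows of the A431 table, which holds 6 libraries. In each species 1 further symbol matched, Rpl10l and RPL10L, and fell under the minimum. The rule used names and a minimum count and no comparison, and all 82 and 80 members passed the filter on low counts. GENCODE M21 gives 3 of the mouse members, Rpl6l, Rpl32l and Rps4l, as pseudogenes. Other genes whose protein sits in or on the ribosome carry names outside the pattern, among them Rps3a1, Fau and Rack1, and are given apart.

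All mouse samples came from C57BL/6-129 mice and carried the treatment DMBA/TPA, a carcinogen followed by a tumour promoter painted on the skin. The groups were squamous cell carcinoma (SCC) of mice labelled DUSP1 KO with 2 libraries, papilloma of mice labelled DUSP1 KO with 3, SCC of WT mice with 3 and skin of WT mice with 3. RNA was taken from whole frozen sections, so every cell type of a section contributed. A431 is an established human squamous carcinoma line. Cells with an sgRNA against DUSP1 (KO, 3 libraries) or against Tomato (control, 3 libraries) had been injected into the skin as 100000 cells, grown for 3 weeks as xenografts and cleared of mouse cells with a depletion kit. The study compared the groups to find genes that differ with the lesion and with the loss of DUSP1, a phosphatase that switches off MAP kinases.

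Cytosolic ribosomal proteins are made in nearly equal numbers, since a ribosome holds 1 copy of most of them, and their genes are therefore usually transcribed together. Proteins named L belong to the large subunit, which forms peptide bonds, and proteins named S to the small subunit, which reads the mRNA. Rplp0, Rplp1 and Rplp2 form the stalk that recruits elongation factors. Transcripts of the family typically begin with a run of pyrimidines that places their translation under mTOR complex 1, while MYC raises their transcription, and keratinocytes that divide need more ribosomes.

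Libraries held 34378300 to 47883625 counts in mouse and 41183478 to 53456450 in A431. The Dusp1 transcript was not lower in the mouse libraries labelled KO. Against WT SCC it was called higher in KO-labelled SCC (edgeR, log2 fold change 1.07, adjusted p = 0.0284). In KO-labelled papilloma it did not pass (0.64, adjusted p = 0.152). Dusp1 stood at 139.4 and 174.5 CPM, counts scaled to library size, in KO-labelled SCC and at 109.3 to 128.8 CPM in KO-labelled papilloma, against 66.6 to 83.7 CPM in WT SCC, so mouse genotypes are given here as labels. In A431, DUSP1 stood at 71.0 to 77.1 CPM in KO cells and 467.5 to 485.5 CPM in control cells. Markers of keratinocytes were present in every library. Of the 6 leukocyte markers, 3 or 4 were at 0 counts in each A431 control library and 4 in each A431 KO library.

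The starts of the 6 members that rose most in WT SCC and of 2 that fell are shown because the family is known for what lies there. Each line gives the bases from 30 before to 20 after the start annotated by RefSeq on GRCm38.p6, on the strand of the gene, with TCTTT and CCTTT in capitals. In the Rpl7a line a further TCTTT overlaps the end of the marked one and is not capitalised.
Rpl13a, chr7:45128726-45128775, minus strand: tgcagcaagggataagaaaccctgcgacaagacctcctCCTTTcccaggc
Rpl7a, chr2:26910777-26910826, plus strand: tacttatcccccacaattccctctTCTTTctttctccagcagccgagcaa
Rpl28, chr7:4792935-4792984, plus strand: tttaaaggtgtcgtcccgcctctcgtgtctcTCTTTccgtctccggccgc
Rpl12, chr2:32961682-32961731, plus strand: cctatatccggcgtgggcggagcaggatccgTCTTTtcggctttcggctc
Rps26, chr10:128626487-128626536, minus strand: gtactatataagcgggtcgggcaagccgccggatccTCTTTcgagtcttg
Rpl10a, chr17:28328441-28328490, plus strand: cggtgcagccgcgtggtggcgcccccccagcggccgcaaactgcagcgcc
Rpl3l, chr17:24727796-24727845, plus strand: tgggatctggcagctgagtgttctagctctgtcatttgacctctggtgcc
Rpl39l, chr16:10170198-10170247, plus strand: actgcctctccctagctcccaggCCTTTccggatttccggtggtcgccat

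RefSeq held a promoter for 60 of the 82 members. Within 20 bases on either side of the start, on the strand of the gene, TCTTT or CCTTT stood in 22 of these 60 (36.7%), against 2399 of 27025 mouse promoters (8.88%). The letters TCTTT alone stood in 12 of the 60 and CCTTT in 12, so 2 members held both. In the windows above, 5 of the 6 members that rose most held a match and Rpl10a held none, while of the 2 that fell Rpl39l held a match and Rpl3l none. The letters CCGGAAG, searched on both strands of the whole 300 bases, stood in 24 of the 60 member promoters (40%), against 2465 of all 27025 (9.12%). A match is a description of the sequence, not a site in use.

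The family took 11.7% and 9.73% of the counts in the KO-labelled SCC libraries, 8.96 to 11.9% in KO-labelled papilloma, 11.4 to 13.95% in WT SCC and 8.39 to 10.4% in WT skin. In A431 it took 4.96 to 5.17% in KO cells and 4.62 to 4.95% in control cells. Summed over members and scaled by edgeR's TMM factors, the level, in units of 1000 CPM, was 127.5 ± 22.5 in KO-labelled SCC (SD, n = 2), 113.4 ± 14.1 in KO-labelled papilloma (SD, n = 3), 123.1 ± 18.6 in WT SCC (SD, n = 3) and 76.9 ± 9.64 in WT skin (SD, n = 3). On this scale all 8 tumour libraries stood above all 3 of skin, and the 3 tumour groups overlapped. As a share of counts both KO-labelled groups overlapped WT skin, and WT SCC did not. In A431 the sums were, in the same unit, 50.2 ± 0.812 in KO cells and 48.5 ± 2.11 in control cells (SD, n = 3 each), and the groups overlapped. As a share of counts the A431 groups did not overlap, though the nearest libraries stood at 4.96% in KO cells and 4.95% in control cells. Replicates within a group differed along the whole family: 75 of the 77 protein-coding members other than Rpl3l and Rpl39l were higher in WT skin replicate 3 than in replicate 1, and only 2 were higher in WT SCC replicate 3 than in replicate 1.

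**Figure D1:**
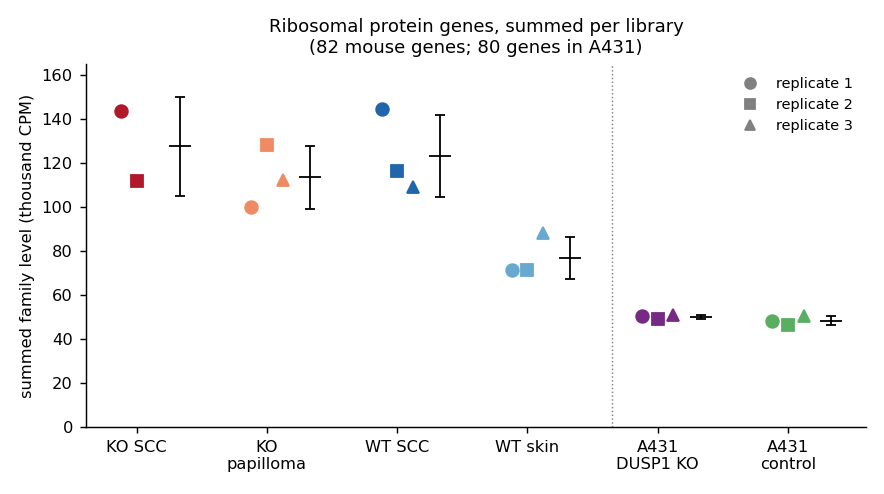
Summed level of the family in units of 1000 CPM (vertical axis) in each of 17 libraries by group (horizontal axis), with replicate numbers as marker shapes and the mean ± SD in black. On this scale, which uses TMM factors, the 8 mouse tumour libraries lie between 99.9 and 144.3, above the 71.3 to 88.0 of WT skin. The A431 groups overlap on this scale.

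Per kilobase of reference transcript, the mouse members spanned 1.21 to 7320 CPM per kb as a mean over all 11 libraries, with a median of 1563. Of the 82, 63 were above 1000 CPM per kb. The highest was the stalk gene Rplp1 at 7320 CPM per kb, then Rpl41 at 4621, Rps18 at 3749 and Rps14 at 3539. Only 7 members were under 100 CPM per kb, and they fell into 2 kinds. Rpl13a (92.1 CPM per kb), Rps10 (15.7) and Rpl24 (3.898) share exons on the same strand with another annotated gene over 59.3%, 70.8% and 71.5% of the reference transcript, and the sources used here do not say how shared reads were counted. The other members of that low set, Rps4l (7.92), Rpl3l (7.29), Rpl39l (3.49) and Rpl32l (1.21), are paralogs or pseudogenes of abundant members and have no such overlap.

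In WT SCC against WT skin the family rose almost as a block. Of 82 members 62 were higher and 3 lower at an adjusted p under 0.05, against 40.5% of all 22371 genes tested called in either direction, 16.9% higher and 23.6% lower (edgeR's quasi-likelihood test with Benjamini-Hochberg adjustment). The median log2 fold change of the members was 0.66, a ratio of 1.58, beside -0.16 for all genes. Of the large subunit 35 of 47 members rose, of the small subunit 24 of 32, and of the stalk 3 of 3, with medians of 0.65, 0.70 and 0.67 on the log2 scale. The 17 members that did not pass had log2 fold changes of 0.30 to 0.65, all above 0. Libraries of the groups did not overlap for 70 members that were higher and 3 that were lower in WT SCC, against 24.8% and 29.9% of all genes.

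The most abundant members moved by similar amounts. Rplp0, the base of the stalk, stood at 5176, 4629 and 4482 CPM in WT SCC and 2755, 2748 and 2986 CPM in WT skin, a log2 fold change of 0.75 ± 0.14 (SE, adjusted p = 0.00166). Rps6, the substrate of S6 kinase, stood at 2614, 2056 and 1941 CPM in WT SCC and 1239, 1309 and 1525 CPM in WT skin (0.70 ± 0.16, adjusted p = 0.0053). The groups did not overlap for either gene. Rps19, mutated in human Diamond-Blackfan anaemia, averaged 1897 ± 231.5 CPM in WT SCC and 1090 ± 93.7 CPM in WT skin (SD, n = 3 each; log2 fold change 0.80, adjusted p = 0.00444). Rpl5 and Rpl11, which bind MDM2 as a particle with 5S rRNA, had log2 fold changes of 0.54 ± 0.19 (adjusted p = 0.0398) and 0.70 ± 0.19 (adjusted p = 0.0123). Rpl5 lost its call in 7 of 14 alternative fits, among them total counts, no filter, the replicate block and 4 left-out libraries, with adjusted p of at most 0.202. Rpl11 lost its call in 2, with total counts and without WT SCC replicate 1, at most 0.0545.

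Beside Rpl13a, the largest rises were those of Rpl7a, Rpl28, Rpl12, Rps26 and Rpl10a, at log2 fold changes of 0.96, 0.93, 0.89, 0.87 and 0.85 with adjusted p of 0.0221 to 0.00135. Rpl12 lies at the foot of the stalk and Rps26 beside the channel by which mRNA leaves the ribosome. Rpl28 stood at 1503, 1670 and 1460 CPM in WT SCC and 807.1, 779.8 and 852.8 CPM in WT skin, with no overlap. Rpl7a lost its call in 5 of 14 alternative fits, with total counts and without WT skin replicate 1 or 2 or WT SCC replicate 1 or 2, with adjusted p of at most 0.0839. Scaled to the summed family the 5 members had log2 fold changes of 0.17 to 0.30 and none passed, with adjusted p of 0.173 to 0.269.

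**Figure D2:**
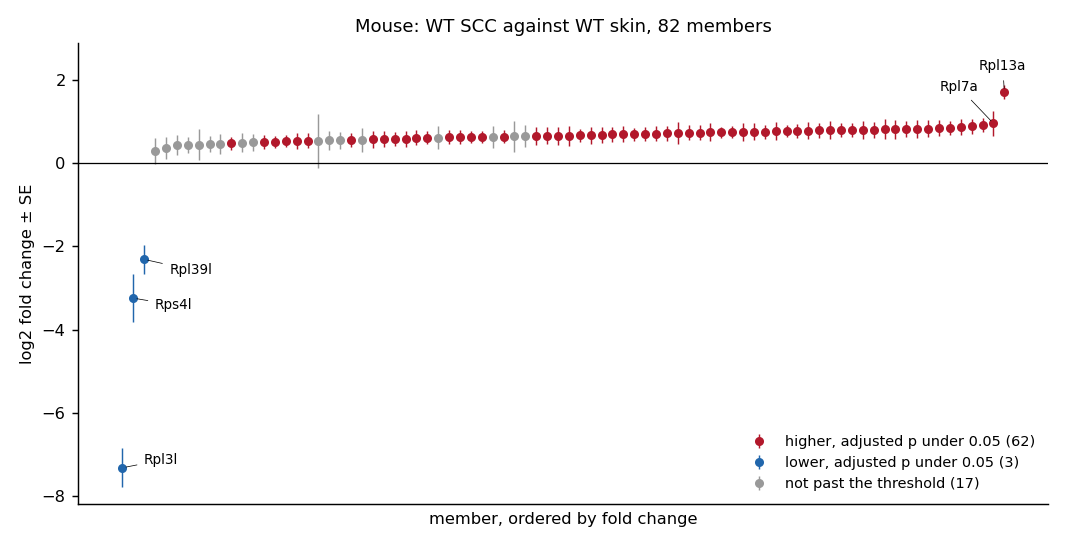
Log2 fold change of WT SCC over WT skin with its SE (vertical axis) for each of the 82 mouse members in order of fold change (horizontal axis), coloured by the adjusted p of edgeR's test. The 62 members that rose lie between 0.48 and 0.96 apart from Rpl13a at 1.71, and Rpl3l, Rps4l and Rpl39l lie far below it.

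Scaled to the summed family, 4 members departed from it in WT SCC against WT skin, 1 higher and 3 lower, while 46.1% of all genes did, 3.06% higher and 43% lower. The choice of library size centres the members, with a median of -0.01, and moves that of all genes to -0.83. These shares therefore cannot be set against each other. The 4 members were Rpl13a, which rose, and Rpl3l, Rps4l and Rpl39l, which fell. Rpl13a, a large-subunit protein that in human cells also takes part in silencing inflammatory mRNAs, stood at 160.9, 139.2 and 130.6 CPM in WT SCC and 37.3, 41.6 and 52.5 CPM in WT skin. The lowest SCC library was thus well above the highest of skin. Its log2 fold change was 1.71 ± 0.16 (adjusted p = 2.82e-05), and 1.04 ± 0.13 relative to the family (adjusted p = 0.00015). Its counts cover only what was assigned to it beside the overlapping transcript described above.

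Rpl3l, the paralog of Rpl3 that striated muscle uses, had 7, 5 and 16 counts in the WT SCC libraries and 1366, 2282 and 1651 in those of WT skin. The log2 fold change was -7.32 ± 0.47 (adjusted p = 4.77e-06), a level 159.9-fold lower. All 6 skeletal muscle markers listed (Acta1, Ckm, Mylpf, Tnnt3, Myh4 and Myh1) fell as well. Their summed level was 5.84 to 120.6 CPM in WT SCC and 5259 to 7276 CPM in WT skin, with none of the 6 at 0 in either group. WT SCC replicate 3 held the most muscle marker RNA of its group and also the most Rpl3l. Rpl3 itself, the abundant parent, rose to 1763, 1467 and 1388 CPM in WT SCC, against 788.5, 887.7 and 1002 CPM in WT skin (log2 fold change 0.79, adjusted p = 0.00402). In whole sections fewer cells of a type and less RNA per cell cannot be told apart.

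Rpl39l, the paralog of Rpl39 that is best known from testis, stood at 1.07, 1.36 and 1.42 CPM in WT SCC and 7.67, 5.74 and 5.78 CPM in WT skin, 4.96-fold lower in SCC (log2 fold change -2.31 ± 0.34, adjusted p = 0.000425). Rpl39 had a log2 fold change of 0.65 ± 0.26 and did not pass (adjusted p = 0.0661). Rps4l, at 148354656 to 148355598 on the plus strand of chromosome 6 of GRCm38, is a transcribed processed pseudogene related to Rps4x. It stood at 1.31, 1.07 and 1.40 CPM in WT SCC and 13.3, 6.12 and 16.3 CPM in WT skin, 9.46-fold lower in SCC (log2 fold change -3.24 ± 0.58, adjusted p = 0.00133). Rps4x did not pass (0.45 ± 0.19, adjusted p = 0.0791), nor did Rps27l, the paralog of Rps27 that p53 induces (0.37 ± 0.27, adjusted p = 0.28).

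**Figure D3:**
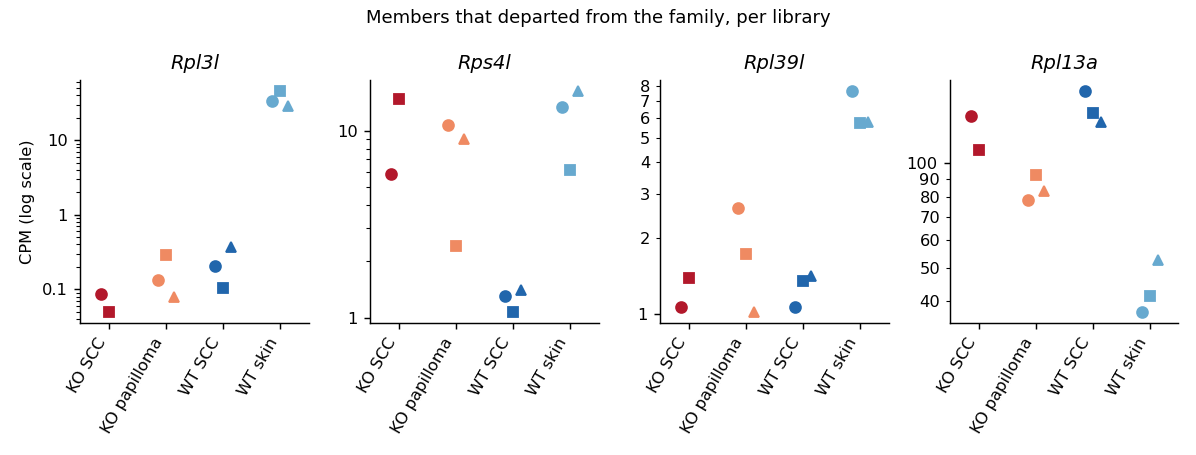
CPM on log scales (vertical axes) of Rpl3l, Rps4l, Rpl39l and Rpl13a in the 11 mouse libraries by group (horizontal axes); circles, squares and triangles are replicates 1, 2 and 3. Rpl3l and Rpl39l are high in WT skin alone, Rps4l is low in WT SCC at 1.07 to 1.40 CPM, and Rpl13a is low in WT skin at 37.3 to 52.5 CPM.

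Genes that serve the ribosome were called in the same comparison, beside the 16.9% of all genes called higher and 23.6% lower. Of the ribosomal protein genes named outside the pattern 5 of 7 rose in WT SCC and none fell, among them Rack1, the scaffold on the small subunit (log2 fold change 0.67, adjusted p = 0.00438). Of 44 genes of RNA polymerase I and ribosome biogenesis 41 rose and none fell, with a median of 0.77. Utp4 of the small-subunit processome stood at 77.1 CPM in WT SCC and 29.8 CPM in WT skin, and nucleolin (Ncl) at 693.0 CPM in WT SCC and 357.0 CPM in WT skin. Of initiation factors 21 of 28 rose, led by Eif6, which keeps the subunits apart (1.19, adjusted p = 0.000137), and of elongation factors and other transcripts with a pyrimidine start 8 of 12 rose, led by Pabpc1 (1.30, adjusted p = 0.000372). None of either list fell.

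Of the chaperones of ribosomal proteins 4 of 7 rose and none fell. Of mTOR complex 1 and its targets 4 of 14 rose and 2 fell, a share near the 40.5% of all genes called in either direction. Among them Eif4ebp1, the repressor of cap-dependent initiation that the complex phosphorylates, had a log2 fold change of 0.82 (adjusted p = 0.00126). Of the MYC family 4 of 8 rose and 2 fell. Myc averaged 83.8 CPM in WT SCC and 31.3 CPM in WT skin (1.42 ± 0.18, adjusted p = 0.000156), while Mycn and Mycl fell, with log2 fold changes of -3.36 and -1.23.

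The make-up of the sections differed in the same comparison. Fibroblast markers fell in 6 of 6, with summed levels of 2322 to 3961 CPM in WT SCC and 4744 to 36355 CPM in WT skin. Leukocyte markers fell in 4 of the 5 tested, with 247.1 to 348.9 CPM in WT SCC and 440.8 to 1005 CPM in WT skin. Keratinocyte markers rose in 3 of 6 and fell in 2, with 35858 to 37772 CPM in WT SCC and 7833 to 17303 CPM in WT skin, and proliferation markers rose in 4 of 6. No defining marker of fibroblasts, keratinocytes or proliferation was at 0 in either group. The part of these shifts in the rise of the family was not tested.

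The size of the count depended on the scaling and on single libraries. With total counts as library size 28 members rose and 3 fell, and the median was 0.41, beside -0.40 for all genes. The members thus stood 0.81 above the median of all genes under total counts, and 0.82 above it under TMM. Without WT SCC replicate 1, 27 members rose and 3 fell, and without WT skin replicate 2, 38 rose and 3 fell.

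In KO-labelled SCC against WT SCC 1 of 82 members was higher and none lower (edgeR), against 7.87% of all genes called, 4.48% higher and 3.38% lower. The median log2 fold change was 0.03 for the members and -0.01 for all genes, and 5 members had an unadjusted p under 0.05. DESeq2 called 2 members higher and 1 lower. The member that rose was Rps4l, at 5.83 and 14.7 CPM in KO-labelled SCC and 1.31, 1.07 and 1.40 CPM in WT SCC, with no overlap (log2 fold change 3.03 ± 0.61, adjusted p = 0.0152). Without WT SCC replicate 2, WT SCC replicate 3 or KO SCC replicate 2 the adjusted p was above 0.05, and at most 0.1. The 3 WT SCC libraries were the low ones of the mouse series for this pseudogene. Scaled to the summed family it was again the 1 member called, higher (3.06, adjusted p = 0.0461), against 1.93% of all genes called, 1.34% higher. On that scale no member was called with the replicate number as a block or in any of the 5 fits that left out 1 library.

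Among the fixed pairs, Rpl3l had 3 and 2 counts in KO-labelled SCC and 7, 5 and 16 in WT SCC and did not pass (adjusted p = 0.18). Rpl39l stood at 1.07 and 1.39 CPM in KO-labelled SCC and 1.07 to 1.42 CPM in WT SCC. Rps6, Rps19, Rpl5 and Rpl11 had log2 fold changes of 0.00, 0.04, -0.02 and 0.30, with adjusted p of 0.409 or more and standard errors of 0.18 to 0.21. A p that misses the threshold does not show that the levels are alike. Rps2, at the mRNA entry of the small subunit, stood at 1586 and 1276 CPM in KO-labelled SCC and 2209 to 2269 CPM in WT SCC, with no overlap, and missed the threshold (log2 fold change -0.65, adjusted p = 0.0651). It passed with total counts as library size, with DESeq2 and with only these 2 groups fitted. Libraries did not overlap for 3 members higher and 4 lower in KO-labelled SCC, where 22.9% and 23.7% of all genes did not overlap.

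For Rpl15, a large-subunit protein, the rows of near-identical copies moved in the opposite direction. Its row alone stood at 1195 and 1040 CPM in KO-labelled SCC and 874.2, 691.9 and 659.6 CPM in WT SCC, a log2 fold change of 0.59 (adjusted p = 0.0528). It passed with RLE factors (adjusted p = 0.0466), with DESeq2 (0.00238), without WT SCC replicate 1 (0.0428) and with only these 2 groups fitted (0.0336). The table also holds 10 rows of copies with at least 95% identity over at least 80% of its coding sequence. They summed to 38.7 and 34.5 CPM in KO-labelled SCC, 30.8 to 33.6 CPM in KO-labelled papilloma and 246.6 to 305.3 CPM in WT SCC. Member and copies together gave a log2 fold change of 0.20 (adjusted p = 0.533).

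The copies made up 3.14 and 3.21% of the summed Rpl15 level in KO-labelled SCC, 3.17 to 3.64% in KO-labelled papilloma and 25.9 to 27.2% in WT SCC. In WT skin they made up 3.09% in replicate 1, 14.3% in replicate 2 and 26.0% in replicate 3. The skin libraries thus spanned the whole range that separated the lesions, with 1 library at the level of the KO-labelled lesions, 1 at the level of WT SCC and 1 in between. The row that moved most in CPM was Gm10020, a processed pseudogene at 52477617 to 52478228 on the minus strand of chromosome 15, at 2.89 and 1.81 CPM in KO-labelled SCC and 118.1 to 140.6 CPM in WT SCC. Its 612 bases differ from the Rpl15 coding sequence at 2 positions, A156G and C202A, counted from the first coding base of Rpl15 with its base first. The sequences around both are shown because they are what tells the rows apart, with the base that differs in capitals.
Rpl15, coding bases 136 to 176: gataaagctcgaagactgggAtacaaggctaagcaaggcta
Gm10020, the same bases: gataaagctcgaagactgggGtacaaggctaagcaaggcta
Rpl15, coding bases 182 to 222: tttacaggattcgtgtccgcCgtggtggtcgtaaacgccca
Gm10020, the same bases: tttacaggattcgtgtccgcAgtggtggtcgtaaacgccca

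Other copies moved with Gm10020. Rpl15-ps3, with 100% identity to Rpl15 over the aligned bases, stood at 2.71 and 3.33 CPM in KO-labelled SCC and 30.1 to 38.3 CPM in WT SCC. Over the family, 73 of 82 mouse members had such copies, whose rows together held 7.07 to 8.81% as many counts as the members. Rps10 was the extreme: its copies held 29.6 times its own counts, most of them in Rps10-ps2 at 254.1 and 291.0 CPM in KO-labelled SCC and 295.5 to 387.8 CPM in WT SCC.

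**Figure D4:**
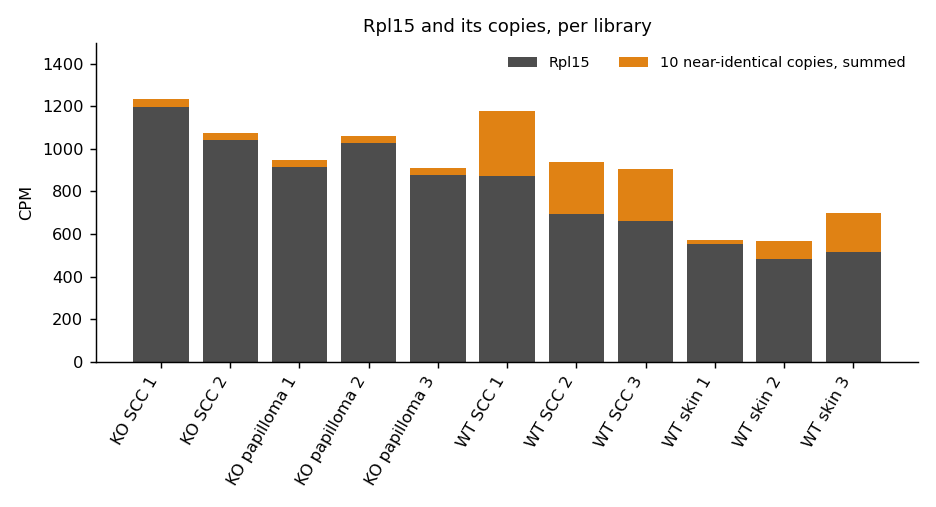
Stacked CPM (vertical axis) of Rpl15 in grey and of its 10 near-identical copies summed in orange, in each mouse library (horizontal axis). The orange part is 30.8 to 38.7 CPM in the 5 KO-labelled libraries, 246.6 to 305.3 CPM in WT SCC and 17.7, 80.6 and 181.3 CPM in WT skin.

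Among genes that build the ribosome a minority was called in KO-labelled SCC against WT SCC, where 4.48% of all genes were higher and 3.38% lower. Of the 44 genes of RNA polymerase I and ribosome biogenesis 9 rose, none fell and 35 did not pass, with a median of 0.41. Dkc1, the pseudouridine synthase of ribosomal RNA, stood at 110.1 CPM in KO-labelled SCC and 57.8 CPM in WT SCC (log2 fold change 0.93 ± 0.17, adjusted p = 0.00902), and Ncl, Utp4 and Nop58 had log2 fold changes of 0.78, 0.65 and 0.96 (adjusted p of 0.0189 to 0.0395). Of initiation factors 3 of 28 rose, Eif3c, Eif2b1 and Eif4e, and of the chaperones Ltv1 rose. No ribosomal protein gene outside the naming pattern and none of the 12 elongation factors and related transcripts passed. Pdcd4, an inhibitor of Eif4a, fell (-1.31, adjusted p = 0.00823), and so did Mxi1, a MAX partner (-0.98, adjusted p = 0.00663). Proliferation markers summed to 1024 and 1238 CPM in KO-labelled SCC and 652.9 to 788.8 CPM in WT SCC, though none of the 6 passed alone.

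In KO-labelled papilloma against WT SCC, 1 member rose and 1 fell, against 5.25% of all genes called, 3.49% higher and 1.77% lower (edgeR). The median of the members was -0.12, beside 0.02 for all genes, and 74 of 82 members had a value below 0. Rps4l rose, at 10.7, 2.41 and 9.02 CPM in papilloma and 1.07 to 1.40 CPM in WT SCC (2.55 ± 0.57, adjusted p = 0.0256). Rpl13a fell to 78.1, 92.1 and 83.2 CPM in papilloma, against 160.9, 139.2 and 130.6 CPM in WT SCC (-0.77 ± 0.16, adjusted p = 0.0168), and it was also low relative to the family (-0.65, adjusted p = 0.0225). On that scale 1 member was higher, Rps4l (2.72, adjusted p = 0.0462), and 1 lower, against 2.75% of all genes, 2.32% higher and 0.429% lower. With the replicate number as a block no member was called on that scale, and in the fits that left out 1 library 0 or 1 was. The groups overlapped for neither gene. The 2 calls rest on few libraries: Rps4l was lost in 5 and Rpl13a in 4 of the 6 fits that left out 1 library of these groups, with adjusted p of at most 0.121 and 0.0738, and with the replicate number as a block Rps4l was lost, while DESeq2 kept both. Lesion type and labelled genotype change together in this comparison and cannot be told apart. Both comparisons use the same 3 WT SCC libraries.

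Few genes of the other lists passed there. Their medians ran from -0.11 for the elongation list to 0.20 for biogenesis, with 0.19 for initiation, beside 0.02 for all genes. Among ribosomal protein genes outside the pattern 1 of 7 rose, and in the lists of biogenesis, initiation, elongation, chaperones and mTOR complex 1 none passed in either direction. Of the MYC family 1 of 8 fell. Rplp0, Rplp1, Rpsa and Rpl4, the most abundant members by CPM, had log2 fold changes of -0.13, -0.01, -0.07 and -0.21, with adjusted p of 0.53 or more.

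In KO-labelled SCC against KO-labelled papilloma no member passed with edgeR, 3 had an unadjusted p under 0.05 and DESeq2 called none, while 0.286% of all genes were called by edgeR, 0.0492% higher and 0.237% lower. Scaled to the summed family edgeR and DESeq2 again called no member, with 4 at an unadjusted p under 0.05, and edgeR called 0.00447% of all genes. The median of the members was 0.21, beside -0.05 for all genes, and 70 of 82 were above 0, with 5 whose libraries did not overlap, all higher in KO-labelled SCC, where 16.1% of all genes did. Without KO SCC replicate 1 the median was 0.01. None of the 7 lists of pathway genes had a member past the threshold. Rpl13a stood at 136.5 and 108.6 CPM in KO-labelled SCC and 78.1 to 92.1 CPM in papilloma, with no overlap (0.54 ± 0.17, adjusted p = 0.202).

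The members also varied among themselves from library to library. Each of the 77 protein-coding members other than Rpl3l and Rpl39l was given as a share of their sum and set against its own mean over libraries on the log2 scale. The 20 members with the shortest coding sequences, 75 to 369 bases, had a median deviation of 0.18 in KO SCC replicate 1 and -0.18 in KO papilloma replicate 1. The 20 longest, 612 to 1257 bases, had -0.08 and 0.11 in the same libraries. Across the 77 members, Spearman's rho between deviation and coding length was -0.42 in KO SCC replicate 1, 0.60 in KO papilloma replicate 1, and -0.34 to 0.37 in the other 9 libraries. This is a description across genes that share a library. The short Rps29 was the member furthest from its own mean in KO SCC replicate 1, at 2112 CPM, against 855.8 CPM in KO SCC replicate 2 and 728.7 to 930.6 CPM in WT SCC. Rpl38, which in mouse embryos is needed to translate Hox mRNAs, stood at 1011 CPM in KO SCC replicate 1, 588.8 CPM in KO SCC replicate 2 and 514.6 to 725.1 CPM in WT SCC. Neither passed in KO-labelled SCC against WT SCC (adjusted p = 0.198 and 0.398).

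In A431 the members moved in both directions and by small amounts. The column names of KO replicates 2 and 3 end alike and that of KO replicate 1 differently, while the sample titles number them as 3 replicates. Counts of KO replicates 2 and 3 differed beyond sampling noise (chi-square per degree of freedom 5.14, against 3.54 to 7.09 between control libraries), so they were kept as separate libraries, but whether they are separate tumours is not stated, and n = 3 and the p-values below assume it. Of 80, 24 were higher and 16 lower in KO cells (edgeR), a share of 50%, near the 47.6% of all 18090 genes called there, of which 23.1% higher and 24.5% lower. The median was 0.00 for the members and 0.01 for all genes, and the quartiles were -0.11 and 0.20. Of the large subunit 16 of 45 members rose and 9 fell, of the small subunit 7 of 32 rose and 7 fell, and of the stalk 1 of 3 rose, RPLP2. Libraries did not overlap for 24 members higher and 13 lower in KO cells, against 26.8% and 28.2% of all genes. With total counts as library size the split was 32 higher and 9 lower, and without a filter on low counts 22 higher and 25 lower. Scaled to the summed family 21 members were higher and 26 lower, against 46.1% of all genes, 19.1% higher and 27% lower.

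RPL26, which in human cells binds the p53 mRNA, rose most. It stood at 18.9, 28.4 and 26.1 CPM in KO cells and 9.66, 9.93 and 13.3 CPM in control cells, 2.22-fold higher (log2 fold change 1.15 ± 0.13, adjusted p = 1.46e-06). Summed with 9 rows named as its pseudogenes the value was 1.07. The RPL26 row was low for the family, whose median member stood at 590.7 to 602.9 CPM in KO cells and 521.8 to 563.2 CPM in control cells. In mouse Rpl26 averaged 1270 CPM. Whether the A431 row holds all reads of the gene was not tested. RPL32 stood at 434.6, 485.6 and 500.0 CPM in KO cells and 298.5, 286.0 and 305.1 CPM in control cells (0.67 ± 0.05, adjusted p = 1.09e-08). RPSA, the small-subunit protein also known as laminin receptor, averaged 753.7 ± 9.80 CPM in KO cells and 522.6 ± 17.2 CPM in control cells (SD, n = 3 each; log2 fold change 0.53, adjusted p = 1.49e-08). The groups were apart for all 3 genes, and RPL26 varied most within the KO cells.

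RPL15, RPS3 and RPL3L completed the largest rises, at log2 fold changes of 0.48, 0.44 and 0.65. RPL3L was at the low level of 2.69 to 3.34 CPM in KO cells and 1.60 to 2.35 CPM in control cells. RPL15 averaged 804.7 ± 26.1 CPM in KO cells and 577.8 ± 15.6 CPM in control cells (SD, n = 3 each), and here the sum with its copies gave 0.49. RPL32, RPSA and RPL21 also kept their calls when summed with copies, but RPL9 and RPS28 did not keep their readings. RPL9 passed alone (-0.12, adjusted p = 0.0365) and not with its copies (-0.02, adjusted p = 0.734). RPS28 did not pass alone (0.02, adjusted p = 0.844) and rose with its copies (0.36, adjusted p = 0.00486). These copies held 1.75 and 3.00 times the counts of RPL9 and RPS28. RPS3, which sits at the mRNA entry, averaged 913.6 ± 39.2 CPM in KO cells and 674.2 ± 29.0 CPM in control cells (SD, n = 3 each). Some sets of members that share a chromosome moved mostly alike. Of 8 on the chromosome that holds RPL32, RPSA and RPL15, 7 rose and none fell, with a median of 0.36. Of 5 on that of RPS3, 5 rose, with a median of 0.30, and of 3 on another, 2 fell and none rose. Of the other 64 members 12 rose and 14 fell, with a median of -0.03. The grouping by chromosome was not planned, and these sets were picked with the values known. The other 64 members were not split by chromosome, so the sets do not show that members of a chromosome move alike in general. Positions of human genes were not computed here, and the cause of these shared directions was not tested.

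The largest falls by the naming rule were smaller. RPL21 stood at 250.6, 192.2 and 188.9 CPM in KO cells and 280.5, 287.1 and 278.5 CPM in control cells (-0.42 ± 0.08, adjusted p = 0.000218). KO replicate 1 lay nearer to the controls than KO replicates 2 and 3. RPS27L, the p53-induced paralog, stood at 27.9, 25.9 and 25.8 CPM in KO cells and 33.5 to 34.7 CPM in control cells (-0.36 ± 0.06, adjusted p = 6.25e-05), while RPS27 did not pass (-0.10, adjusted p = 0.183). RPS23 of the decoding centre fell by 0.33 on the log2 scale, RPS14 by 0.22, RPL10 by 0.19 and RPL3 by 0.19. RPS15A fell as well (-0.33, adjusted p = 0.015), but its groups overlapped, with KO replicate 1 at 198.0 CPM within the 187.6 to 203.4 CPM of control cells. Of the genes tied to S6 kinase, to anaemia and to MDM2, RPS6, RPS19 and RPL5 did not pass (-0.09, -0.06 and -0.11), while RPL11 fell (-0.16, adjusted p = 0.00659), a call lost without KO replicate 2 (adjusted p = 0.0576).

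**Figure D5:**
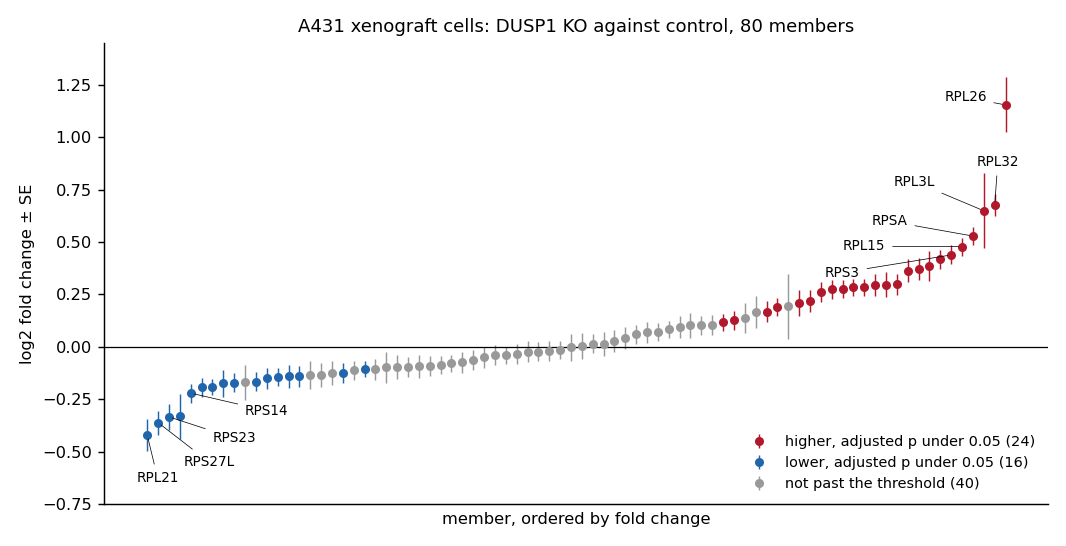
Log2 fold change of DUSP1 KO over control A431 cells with its SE (vertical axis) for each of the 80 members in order of fold change (horizontal axis), coloured by the adjusted p of edgeR's test. The 24 higher members reach 1.15 with RPL26, the 16 lower reach -0.42 with RPL21, and 40 members lie between without passing.

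The 3 KO libraries were not equally far from the controls, and among them the pair whose column names end alike was the closest. Over the 80 members the median absolute log2 difference was 0.05 between KO replicates 2 and 3, 0.09 between KO replicates 2 and 1, and 0.08 between KO replicates 3 and 1. Control replicates 1 and 2 were as close, at 0.05, and the other control pairs stood at 0.08 and 0.12. Against the controls KO replicate 1 stood at 0.10 to 0.16, KO replicate 2 at 0.16 to 0.19 and KO replicate 3 at 0.15 to 0.20. Of the 16 members that fell, KO replicate 1 was higher than both other KO libraries in 14 and lay below all 3 controls in 13. Of the 24 that rose, KO replicate 1 was higher than both other KO libraries in 8 and lay above all 3 controls in 24. Without KO replicate 1, 29 members were higher and 27 lower. Without KO replicate 2, 8 were lower, without KO replicate 3, 9, and without control replicate 3, 8. Across all 14 fits 20 members were called higher and 7 lower every time.

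Genes of the pathway lists were called in both directions in A431 beside 23.1% of all genes higher and 24.5% lower. Of ribosomal protein genes outside the pattern 1 of 7 rose and 1 fell: FAU had a log2 fold change of 0.15 (adjusted p = 0.0259) and RACK1 one of -0.65 (adjusted p = 2.39e-09). RACK1 averaged 476.0 CPM in KO cells and 745.7 CPM in control cells. Of 45 genes of RNA polymerase I and ribosome biogenesis 12 rose and 11 fell, with log2 fold changes of 0.78 for MYBBP1A and -0.75 for NHP2. Of initiation factors 5 of 28 rose and 16 fell, with EIF4A1 at 28.5 CPM in KO cells and 17.4 CPM in control cells, and EIF3L and EIF2S3 at -0.39 and -0.35. Of the elongation list 1 of 11 rose and 4 fell, among them NPM1 (-0.61, adjusted p = 5.66e-09) and EEF1A1 (-0.17, adjusted p = 0.00067). MYC stood at 102.7 CPM in KO cells and 103.3 CPM in control cells and did not pass (adjusted p = 0.904), while of the 7 tested genes of its family 1 rose and 3 fell. Of mTOR complex 1 and its targets 4 of 14 rose and 4 fell, and of the chaperones 2 of 8 fell.

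Proliferation markers fell in 4 of 6 and rose in 1 in the same cells, with summed levels of 744.6 to 756.7 CPM in KO cells and 882.1 to 899.4 CPM in control cells and none of the 6 at 0. Fibroblast markers fell in 4 of the 4 tested, at summed levels of 75.8 to 87.9 CPM in KO cells and 126.3 to 127.2 CPM in control cells. Their part in the values of the family was not tested.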

How the data were processed

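RNA libraries were prepared by a stranded mRNA method, per the labels' protocols. The submitters' processing notes name HISAT2, StringTie and DESeq with mm10 and hg38; the sources used here do not say how shared reads were counted. The authors deposited whole-number counts per gene, 1 table for 11 mouse and 1 for 6 A431 libraries, with 34378300 to 47883625 and 41183478 to 53456450 counts a library. Rows without a gene name held 0.115 to 0.496% and 0.190 to 0.211% of counts and were left out.

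Counts were filtered with filterByExpr, scaled with TMM and tested with edgeR 4.0.16 (quasi-likelihood, two-sided, R 4.3.3) on all genes of a table, with Benjamini-Hochberg adjustment and a threshold of 0.05. The 4 mouse groups shared 1 fit. CPM values use TMM library sizes. A second fit used the summed family as library size. The script was tested on simulated data.

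Named in each comparison were the 6 largest rises and falls that passed with an average log2 CPM of at least 1 and no overlap, the 4 most abundant members, listed paralogs with their parents, Rps6, Rps19, Rpl5, Rpl11 and up to 4 genes of each pathway list. Other members named, such as Rpl15, Rps2, Rps29, Rpl38, RPS15A, RPL9 and RPS28, were chosen after their values were seen. The members and lists were chosen with earlier results of these data known.

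Alternatives were RLE factors, total counts, TMM without the members, no filter, DESeq2 1.42.0, a replicate block, each library left out and only the groups compared. Summing members with near-identical copies was added after seeing the data. No source says that replicates were separate animals or tumours beyond being separate samples, so p-values measure the spread between these samples.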

Additional observations from a re-analysis of the deposited data

Results flagged for a closer look

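For 3 members the libraries labelled KO stood apart from their controls in opposite directions in mouse SCC and in A431. Among all genes, libraries did not overlap for 22.9% higher and 23.7% lower in mouse SCC, and for 26.8% and 28.2% in A431. The share of all genes that did so in opposite directions was not computed. Whether 3 members are many or few is therefore not known, and the count is not a result about the family. The difference between the systems was not tested, and none of the 3 passed edgeR's test in mouse. RPS2 had a log2 fold change of -0.648 in KO-labelled SCC against WT SCC (adjusted p = 0.0651) and of 0.26 in A431 KO against control cells. RPL3L had -1.7 in mouse (adjusted p = 0.18), from 3 and 2 counts in KO-labelled SCC and 7, 5 and 16 in WT SCC, and 0.65 in A431. RPL24 had -0.786 in mouse, where 71.5% of its transcript lies in exons of another gene, and 0.28 in A431. The mouse row did not pass (adjusted p = 0.211), and summed with its near-identical copies, which held 5.07 times its own counts, it had -0.04 (adjusted p = 0.945).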

How the results depend on the processing

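No named member that was called changed direction under the alternatives, but medians near 0 changed sign. For KO-labelled SCC against WT SCC (0.03) this happened with total counts and without KO SCC replicate 1, WT SCC replicate 2 or WT SCC replicate 3. For KO-labelled papilloma against WT SCC it happened without WT SCC replicate 1, and for A431 with no filter and in 3 of the fits that left out 1 library. In WT SCC against WT skin, 65 members were called; total counts gave 31 and a median of 0.41, leaving out 1 library gave 30 to 75 calls and medians of 0.55 to 0.81. In KO-labelled SCC against WT SCC, 1 member was called, against 2 with RLE factors, total counts or no filter, 3 with DESeq2 or only the 2 groups, and 0 to 2 with 1 library left out. The median there was -0.23 with total counts and -0.13 to 0.20 with 1 library left out. Scaled to the summed family, DESeq2 gave 2 calls, only the 2 groups 3, and leaving out 1 library 0. In KO-labelled papilloma against WT SCC, 2 members were called, and 0 to 2 with 1 library left out, with medians of -0.23 to 0.00; scaled to the summed family no filter gave 1 and leaving out 1 library 0 to 1. In A431, 40 were called, and 31 to 56 with 1 library left out, with medians of -0.04 to 0.04; scaled to the summed family 47 and 32 to 50.

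Deviations of same-numbered libraries correlated at -0.32 to 0.13. Libraries of different numbers were not compared, so these values cannot show whether the samples were paired. Replicate numbers are those of the sample titles, and the column names of the KO-labelled SCC libraries end in other numbers. With the number as a replicate block, KO-labelled papilloma against WT SCC had 1 call, and 0 scaled to the summed family, as had KO-labelled SCC against WT SCC on that scale, where the main design had 1. WT SCC against WT skin had 56 under the block and A431 41.

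With 2 KO-labelled SCC libraries and an SD of 22.5 in units of 1000 CPM in the summed family, small shifts between lesions were not detectable.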
